A study of Mus musculus with 10 samples.

Results

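The genes described here are 10 transcription factors that steer blood progenitors toward one lineage: Gata1, Klf1 and Nfe2 for the erythroid and megakaryocyte side, Spi1, Cebpa, Gfi1 and Irf8 for the myeloid side, and Ikzf1, Ikzf2 and Ebf1 for the lymphoid side. They were found by symbol, 10 of the 24544 genes in the deposited table of counts. The libraries are bulk RNA-seq of mouse long-term hematopoietic stem cells, rare marrow cells able to rebuild all blood of a transplanted host. The question was whether neogenin-1 on the cell surface (NEO1, encoded by Neo1) tells myeloid-biased from balanced stem cells among those expressing Hoxb5. The 5 NEO1+ and 5 NEO1- libraries shared every other property in the labels: Hoxb5-mCherry reporter mice, bone marrow, an age of 2 to 3 months, and a gate of Lin-, cKIT+, SCA1+, CD150+, CD48-, FLK2-, CD34- and Hoxb5+ cells. Each library came from 250 to 500 cells pooled from 2 mice, so a library is a pool of animals and not 1 mouse.

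As background, lineage choice is often described as a contest among such factors. GATA1 drives erythroid and megakaryocyte genes and PU.1, the product of Spi1, drives myeloid and B cell genes, and each can repress the other's program. Stem cells are thought to hold some of these factors at low levels before they commit, with GATA2 in the place that GATA1 takes later in erythroid maturation. C/EBPα and GFI1 then direct granulocytes, IRF8 monocytes and dendritic cells, Ikaros early lymphoid cells and EBF1 B cells.

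Library totals lay between 21.2 and 38.9 M counts. Genes with a count numbered 12800 to 13808 in NEO1+ and 11477 to 13147 in NEO1- libraries. Rn45s, a ribosomal RNA gene, took 27.9% to 37.7% of counts in NEO1+ and 30.7% to 42.4% in NEO1- libraries. The bearing of these differences on the factors was not tested. The 10 stem cell markers looked up (Hlf, Mecom, Procr, Slamf1, Fgd5, Meis1, Kit, Ly6a, Hoxb5 and Neo1) were all counted in 9 libraries, and their summed level differed little, at 1574 to 1837 CPM (the count relative to the TMM-scaled library size in M). The exception was NEO1- library 3, which held 0 counts of Hoxb5, a gene the gate selects by its reporter. A count of 0 allows up to 0.102 CPM there. NEO1- library 1 was also low, with 7 counts of Hoxb5 (0.223 CPM), and the remaining libraries held 2.12 to 4.91 CPM. Neo1 was at 48.6 to 64.8 CPM in 4 NEO1+ libraries and at 4.56 to 18.9 CPM in the NEO1- libraries, but at 12.5 CPM in NEO1+ library 4, within the NEO1- range. Values without that library are therefore given where they matter. The erythroid precursor and granulocyte markers differed far more among libraries than the stem cell markers did, and their levels are given below beside the factors.

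The comparison of NEO1+ with NEO1- cells called no lineage factor. Of the 9 factors with enough counts to be tested, 0 passed an edgeR adjusted p of 0.05, where 0 of 12203 genes (0%) passed. At an unadjusted p under 0.05 the factors numbered 0 of 9, against 806 genes or 6.6% of all genes tested (3.11% higher and 3.49% lower in NEO1+). DESeq2 and limma-voom also called 0 of the factors. The ranges of the groups overlapped for all 9, while 2.48% of all genes tested had groups that did not overlap. The signs were mixed, with 4 of the factors higher and 5 lower in NEO1+ libraries, and their median log2 fold change was -0.04 against 0.01 over all genes tested. In bulk libraries such as these, fewer cells of a type and less RNA per cell cannot be told apart.

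**Figure D1:**
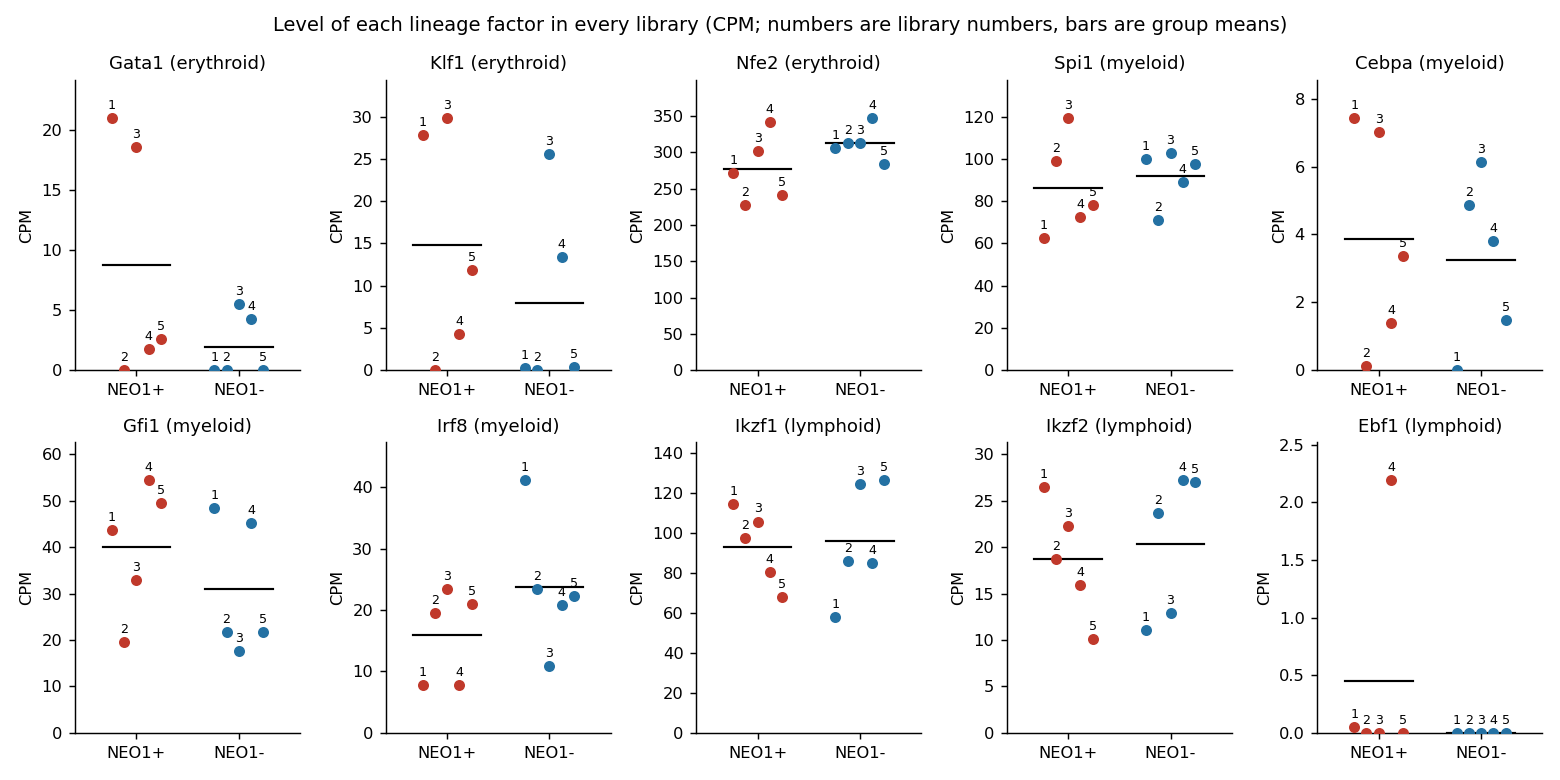
Level of each of the 10 factors (vertical axis, CPM) in the 5 NEO1+ (red) and 5 NEO1- (blue) libraries, with each point 1 library marked by its number and each bar a group mean. Gata1, Klf1 and Cebpa have libraries at or near 0 in both groups, whereas Nfe2 stays between 227 and 348 CPM in all 10 libraries.

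The factors differed from each other in how much they varied among libraries of 1 group. This spread was measured as the pooled within-group standard deviation (SD) of log2 CPM, over 8 degrees of freedom. It was 3.42 for Gata1, 3.59 for Klf1 and 2.47 for Cebpa, against 0.74 or less for Nfe2, Spi1, Gfi1, Irf8, Ikzf1 and Ikzf2. A spread above 1 was also common in the whole table, with 29.7% of all genes tested, and 3 of the 9 factors tested had one; the median over all genes tested was 0.57. Gata1 had a larger spread than 99.5% and Klf1 than 99.7% of the genes tested, and Cebpa than 90.7%. Abundance bears on this, since low counts scatter more. The biological coefficient of variation that edgeR fits to genes of the same abundance was 1.14 for Gata1 and its own was 1.98, and for Klf1 the values were 0.767 and 1.51. Cebpa did not stand above its abundance, at 1.33 against 1.32.

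**Figure D2:**
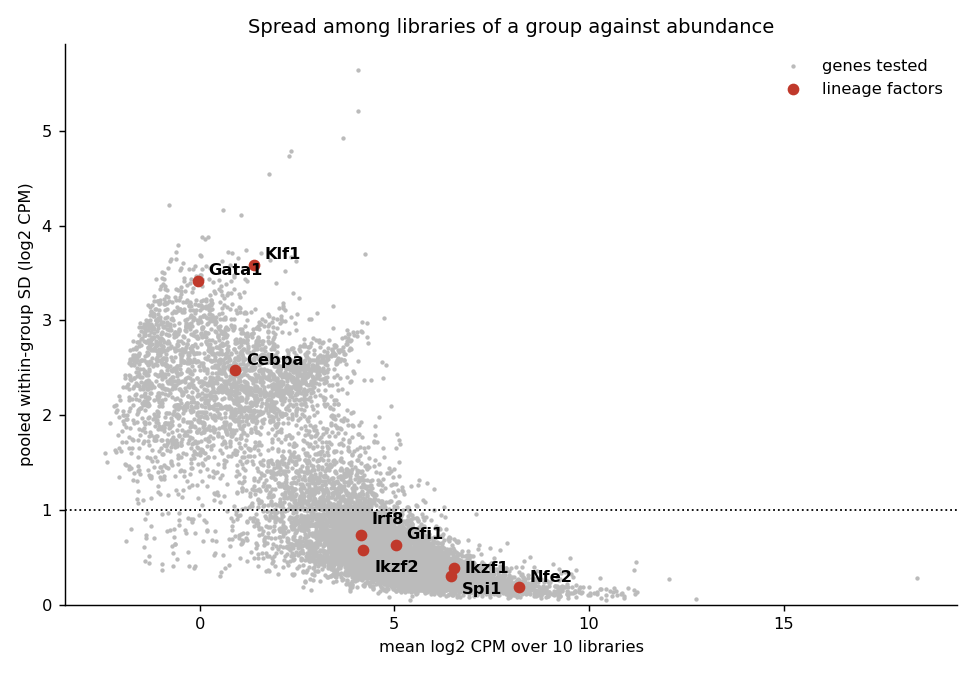
Pooled within-group SD of log2 CPM (vertical axis) against mean log2 CPM over the 10 libraries (horizontal axis) for all 12203 genes tested (grey) and the 9 tested factors (red), with a dotted line at 1. Gata1 and Klf1 lie near the upper edge of genes of like abundance, Cebpa lies inside them, and the other 6 factors lie under the line.

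Gata1 encodes the master factor of erythroid and megakaryocyte genes. NEO1+ libraries 1 to 5 held 21.0, 0, 18.6, 1.73 and 2.61 CPM of it. The NEO1- values, in the same order, were 0, 0, 5.52, 4.225 and 0 CPM. It was thus high in NEO1+ libraries 1 and 3, of a lower level in 4 others of both groups, and at 0 counts in NEO1+ library 2 and NEO1- libraries 1, 2 and 5, where a count of 0 allows up to 0.0768, 0.0955, 0.140 and 0.0992 CPM. The 95% Poisson interval of the counts ran from 19.1 to 23.1 CPM in NEO1+ library 1 and from 1.31 to 2.25 CPM in NEO1+ library 4. These intervals cover the counting of reads only, not the differences between pools of mice or amplifications. The log2 fold change was 2.17 (SE 1.87, edgeR adjusted p 0.94), with a 95% interval of -1.86 to 6.19, so a large difference in either direction lies inside it. Without NEO1+ library 4 it was 2.44, and leaving out any 1 library gave 1.55 (without NEO1+ library 1) to 3.04 (without NEO1- library 3, which lacked Hoxb5 counts). Without NEO1- library 1, which held 7 counts of Hoxb5, it was 1.85. Of the whole sum of squares of its log2 CPM, 17.9% lay between the groups, against a median of 8.95% over all genes tested.

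Klf1 encodes EKLF, which activates adult globin and other erythroid genes. Its NEO1+ values for libraries 1 to 5 were 27.8, 0, 29.9, 4.29 and 11.9 CPM. The NEO1- values were 0.255, 0.0468, 25.5, 13.3 and 0.397 CPM, that is, at 8, 1 and 12 counts in libraries 1, 2 and 5. Both groups spanned nearly the whole range, and 7.23% of the sum of squares lay between them. The log2 fold change was 0.90 (SE 1.48, edgeR adjusted p 0.998; 95% interval -2.28 to 4.08), and 1.14 without NEO1+ library 4. It was 2.07 without NEO1- library 3, the library with 0 counts of Hoxb5, and was 0.48 without NEO1+ library 3. Without NEO1- library 1, at 7 counts of Hoxb5, it was 0.59.

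The libraries with high Klf1 were those with high Gata1. The 4 libraries with the highest Gata1, which are NEO1+ libraries 1 and 3 and NEO1- libraries 3 and 4, were also the 4 with the highest Klf1. Likeness was measured as the root-mean-square difference between log2 CPM profiles over the 10 libraries, each gene centred on its own mean. By this measure Gata1 was the closest to Klf1 of all genes tested, with a difference of 0.90 log2 units. From the side of Gata1, Klf1 came second after Trem3 (0.84), a receptor of the TREM family, and before Rhd (0.97), which encodes the erythrocyte rhesus antigen. Fam46a and Nudt11 followed Rhd, and after Gata1 the closest to Klf1 were Slc10a1, Nudt11, Gen1 and Trem3, at up to 1.26 log2 units. All of these were low genes, and libraries with 0 counts of several of them weigh heavily in the measure, which is a description of 10 libraries.

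The promoters of these factors are shown because Gata1 and Klf1 were high in the same libraries; Cebpa is the third factor with a spread above 1, and Ikzf1 a factor that was steady. Each window runs from 250 bases before to 50 bases after the first RefSeq start in the table (build GRCm38.p6), 5′ to 3′ on the gene's strand. Capitals mark GATAA, a core that GATA factors bind, and CACCC, a core that factors of the KLF family bind, each searched on both strands (TTATC and GGGTG on the printed strand are the same motifs read on the other strand).
Gata1, minus strand, chrX:7967861-7968160: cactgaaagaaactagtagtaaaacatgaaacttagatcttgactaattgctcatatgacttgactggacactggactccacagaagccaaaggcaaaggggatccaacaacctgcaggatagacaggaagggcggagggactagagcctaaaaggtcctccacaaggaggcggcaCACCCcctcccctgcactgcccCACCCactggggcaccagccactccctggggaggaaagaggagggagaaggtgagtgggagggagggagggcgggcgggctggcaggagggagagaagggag
Klf1, plus strand, chr8:84901732-84902031: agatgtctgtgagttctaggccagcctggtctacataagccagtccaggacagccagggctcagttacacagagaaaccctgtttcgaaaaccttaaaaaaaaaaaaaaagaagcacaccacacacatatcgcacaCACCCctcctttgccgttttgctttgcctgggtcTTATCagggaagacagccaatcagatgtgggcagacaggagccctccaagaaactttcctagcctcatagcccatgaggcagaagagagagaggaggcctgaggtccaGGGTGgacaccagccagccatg
Cebpa, plus strand, chr7:35119043-35119342: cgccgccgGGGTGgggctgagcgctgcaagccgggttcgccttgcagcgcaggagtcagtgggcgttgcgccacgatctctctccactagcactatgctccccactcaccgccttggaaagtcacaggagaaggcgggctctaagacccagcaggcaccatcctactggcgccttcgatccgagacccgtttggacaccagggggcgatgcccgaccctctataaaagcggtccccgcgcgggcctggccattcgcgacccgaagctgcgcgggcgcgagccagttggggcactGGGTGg
Ikzf1, plus strand, chr11:11685675-11685974: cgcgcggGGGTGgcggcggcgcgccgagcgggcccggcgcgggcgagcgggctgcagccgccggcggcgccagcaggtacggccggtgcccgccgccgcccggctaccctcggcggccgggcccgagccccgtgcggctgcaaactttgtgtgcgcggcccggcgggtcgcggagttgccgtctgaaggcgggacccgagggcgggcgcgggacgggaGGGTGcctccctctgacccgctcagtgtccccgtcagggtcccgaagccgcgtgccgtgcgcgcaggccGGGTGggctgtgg

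The Klf1 window held 1 GATAA, 80 bases before the start, and 2 CACCC. The Gata1 window held 2 CACCC, 74 and 52 bases before its start, and no GATAA. The Cebpa and Ikzf1 windows held 2 and 3 CACCC and no GATAA. No GATAA match overlapped a CACCC match in them. GATAA was present in 25.4% and CACCC in 57.5% of the 32841 promoter windows of this length, so a match is common and marks no bound site. In base composition the windows differed: the ratio of observed to expected CpG was 0.167 for Gata1 and 0.152 for Klf1, under the median of 0.384 over all windows, and 0.853 for Cebpa and 1.06 for Ikzf1. Their GC content was 57.3%, 51.3%, 67.3% and 81.3% in the same order, with a median of 52.7% over all windows. The Ikzf1 values hold for the printed start only. A second RefSeq start of Ikzf1, not printed, had a CpG ratio of 0.111 and a GC content of 49.0%.

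Nfe2 encodes the p45 subunit of NF-E2, which acts in platelet formation and globin regulation. Its NEO1+ values for libraries 1 to 5 were 271, 227, 302, 341 and 241 CPM, and its NEO1- values 306, 312.5, 312, 348 and 283 CPM. Library 4 was the highest of either group, and the lowest of all were NEO1+ libraries 2 and 5. It was the steadiest factor, with a spread of 0.19 that was smaller than that of all but 4.71% of genes tested. The log2 fold change was -0.18 (SE 0.12, edgeR adjusted p 0.892). Its 95% interval on the linear scale ran from 0.743-fold to 1.05-fold, which bounds the difference closely. Without NEO1+ library 4 the log2 fold change was -0.26, with an unadjusted p of 0.0336 and an edgeR adjusted p of 0.833. Of the sum of squares of Nfe2, 24.6% lay between the groups, the largest share among the 9 tested factors. Each NEO1+ library held less of it than the NEO1- library of the same number, though nothing states that the numbers pair libraries. DESeq2 with the replicate number as a block gave it an unadjusted p of 0.0412 and an adjusted p of 0.277. Unlike Gata1 and Klf1, this erythroid and megakaryocyte factor was present at a like level in every library.

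The other erythroid and megakaryocyte transcription factors looked up had spreads of 0.0925 to 0.93. All 14, among them Gata2, Tal1, Lmo2, Ldb1, Zfpm1, Gfi1b, Myb and Runx1, were tested and had counts in every library, and 0 of 14 had a spread above 1. By edgeR 0 of 14 passed in either direction, 0 had an unadjusted p under 0.05, and their median log2 fold change was 0.11. Gata2, the stem cell GATA factor, had a mean of 635 ± 43.9 CPM over the NEO1+ libraries and 564 ± 45.9 CPM over the NEO1- ones (SD, n = 5 per group); its log2 fold change was 0.17 (SE 0.08, edgeR adjusted p 0.75). It was at 515 CPM in the lowest and 705 CPM in the highest library. Bach1, a repressor of heme-responsive genes, had the widest spread of the 14, from 3.05 to 17.75 CPM. Ldb1, a scaffold of the GATA1 and TAL1 complex, had a log2 fold change of -0.20 (SE 0.11) and Mafk, a partner of NF-E2, one of 0.34 (SE 0.22), with edgeR adjusted p values of 0.807 and 0.89.

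Genes of erythroid cells also varied widely among libraries. Of 20 erythroid genes 15 were tested and 11 of these had a spread above 1; 0 passed by edgeR, 1 had an unadjusted p under 0.05 with a higher level in NEO1+, and 14 of 15 log2 fold changes were positive (median 0.81), against 6228 of all 12203 genes tested. NEO1+ library 3 alone was the highest library for 13 of the 15 genes. The smallest p was that of Alas2, the first enzyme of heme synthesis in red cells, with a mean of 40.0 ± 54.4 CPM over the NEO1+ libraries and 5.06 ± 5.59 CPM over the NEO1- ones (SD, n = 5 per group; log2 fold change 2.98, SE 1.37, edgeR adjusted p 0.747). Its mean rested on NEO1+ library 1, with 133 CPM. Car2 and Aqp1 followed, with log2 fold changes of 0.12 (SE 0.06) and 0.81 (SE 0.48) and edgeR adjusted p values of 0.804 and 0.856. The adult globin genes Hba-a2, Hbb-bs and Hbb-bt had 0 counts in all libraries, and Hba-a1 had at most 1 count, in NEO1+ library 3. The counting tool is not given, so these values do not establish that globin RNA was absent.

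The summed level of 8 erythroid precursor markers (among them Slc4a1, Alas2, Car1, Rhag, Epb42, Ermap and Hemgn) came to 317, 19.8, 495, 53.4 and 68.7 CPM for NEO1+ libraries 1 to 5. The NEO1- sums were 22.3, 36.5, 189, 88.0 and 47.8 CPM. The 4 libraries with the highest Gata1 and Klf1 thus had the 4 highest sums, and both groups held such libraries. None of the 8 markers was at 0 in all libraries. The part of these markers in the Gata1 and Klf1 values was not tested.

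Of 15 megakaryocyte genes, 14 were tested, 0 passed by edgeR and 2 had an unadjusted p under 0.05, both higher in NEO1+: Vwf (von Willebrand factor; log2 fold change 0.78, SE 0.20, edgeR adjusted p 0.368) and Itga2b (0.58, SE 0.27, edgeR adjusted p 0.747). Among the 147 of 15684 genes that DESeq2 called was Vwf, with an adjusted p of 0.0438. Gp1bb, a subunit of the platelet receptor for that protein, came next with 1.89 (SE 1.195, edgeR adjusted p 0.879). The median of the list was 0.17. The summed megakaryocyte markers lay between 75.4 and 131 CPM in NEO1+ and between 59.7 and 105 CPM in NEO1- libraries and did not follow Gata1.

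**Figure D3:**
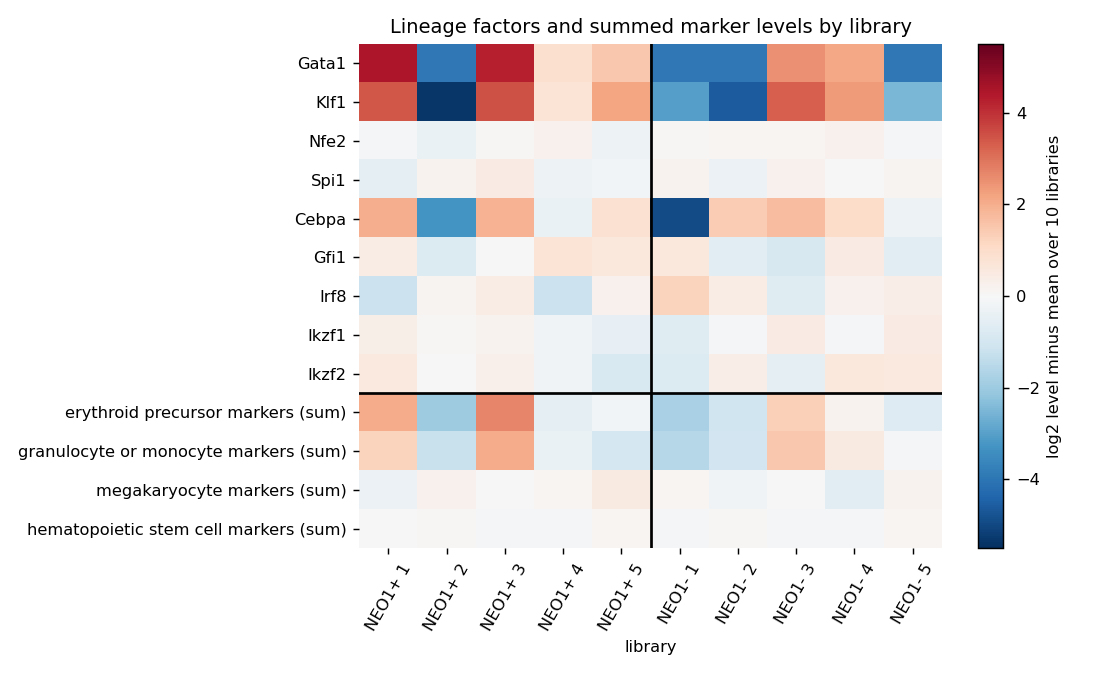
Log2 level minus its mean over the 10 libraries (color; red above, blue below) for the 9 tested factors and for the summed CPM of 4 marker lists (rows), by library (columns, NEO1+ left of the line). Gata1, Klf1, Cebpa and the erythroid precursor and granulocyte sums share their red in NEO1+ libraries 1 and 3 and NEO1- library 3. In NEO1- library 4 Gata1 and Klf1 are red, but both of these sums are pale there. The stem cell sum is pale throughout.

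Spi1 encodes PU.1. Libraries 1 to 5 gave 62.5, 99.1, 119.6, 72.7 and 78.5 CPM for NEO1+ cells, while NEO1- cells gave 100.1, 71.1, 103, 89.0 and 97.8 CPM. Library 3 was the highest of either group, and the lowest were NEO1+ library 1 and NEO1- library 2. The log2 fold change was -0.09 (SE 0.19, edgeR adjusted p 0.998), with a 95% interval from 0.709-fold to 1.24-fold, and 4.51% of its sum of squares lay between the groups. Its spread was 0.30. NEO1+ library 1, the library with the highest Gata1, therefore had the least Spi1, but NEO1+ library 3, second in Gata1, had the most Spi1.

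Cebpa encodes C/EBPα, which granulocytes require. Libraries 1 to 5 gave 7.44, 0.128, 7.02, 1.40 and 3.37 CPM for NEO1+ cells, while NEO1- cells gave 0, 4.87, 6.13, 3.80 and 1.49 CPM. NEO1+ library 2 held 5 counts and NEO1- library 1 held 0 counts, which allows up to 0.0955 CPM. Its 4 highest libraries included 3 of the 4 highest for Gata1, with NEO1- library 2 in place of NEO1- library 4. The group means were nearly equal, with 0.924% of the sum of squares between groups; the log2 fold change was 0.25 (SE 1.33, edgeR adjusted p 0.998; 95% interval -2.62 to 3.12). That interval still allows several-fold differences. The gene of the closest profile was Slc40a1, the iron exporter ferroportin, at 0.90 log2 units, and Col20a1, Armcx5 and Ccdc15 were among the next.

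Gfi1 encodes a repressor that favors granulocytes and restrains stem cell cycling. Libraries 1 to 5 gave 43.8, 19.6, 32.98, 54.4 and 49.4 CPM for NEO1+ cells, while NEO1- cells gave 48.5, 21.8, 17.7, 45.3 and 21.8 CPM. All but NEO1+ library 3 lay either between 17.7 and 21.8 CPM or between 43.8 and 54.4 CPM, and both ranges held libraries of each group. The log2 fold change was 0.37 (SE 0.35, edgeR adjusted p 0.957; 95% interval 0.763-fold to 2.182-fold). Irf8 encodes a factor of monocytes and dendritic cells. Its NEO1+ values were 7.78, 19.5, 23.5, 7.73 and 20.9 CPM for libraries 1 to 5, and its NEO1- values 41.1, 23.4, 10.9, 20.9 and 22.3 CPM. NEO1- library 1 was the highest and NEO1+ libraries 1 and 4 the lowest. The log2 fold change was -0.58 (SE 0.43, edgeR adjusted p 0.909; 95% interval 0.352-fold to 1.28-fold). It was negative under every alternative tried, between -0.76 and -0.29, and did not pass in any. Of the sum of squares of Irf8, 17.7% lay between the groups. Without NEO1+ library 4, the log2 fold changes of Cebpa, Gfi1 and Irf8 were 0.46, 0.23 and -0.41.

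Of 12 other myeloid transcription factors, 10 were tested, 0 passed by edgeR and 1 had an unadjusted p under 0.05: Klf4, a factor of monocytes, with a mean of 12.7 ± 8.17 CPM over the NEO1+ libraries and 25.6 ± 11.5 CPM over the NEO1- ones (SD, n = 5 per group; log2 fold change -1.01, SE 0.43, edgeR adjusted p 0.706). NEO1+ library 2, at 27.2 CPM, lay above 4 of the NEO1- libraries. Maf and Cebpd had log2 fold changes of -2.06 (SE 1.21) and 0.79 (SE 0.58), with edgeR adjusted p values of 0.852 and 0.904. The median of the list was -0.05.

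Of 20 myeloid genes, 16 were tested, 12 had a spread above 1 and 0 passed by edgeR. Cybb, a subunit of the phagocyte oxidase, had the smallest p, with a mean of 12.6 ± 15.7 CPM over the NEO1+ libraries and 0.296 ± 0.527 CPM over the NEO1- ones (SD, n = 5 per group; log2 fold change 5.37, SE 1.67, edgeR adjusted p 0.508). The groups did not overlap, with 1.70 CPM in the lowest NEO1+ and 1.216 CPM in the highest NEO1- library, as for 2.48% of all genes tested. Its NEO1+ mean rested on libraries 1 and 3, at 19.6 and 37.2 CPM. DESeq2 gave Cybb an adjusted p of 0.0141, where it called 147 of 15684 genes. Lyz2 (0.50, SE 0.26) and Camp (2.68, SE 1.67) followed, with edgeR adjusted p values of 0.807 and 0.888, and the median log2 fold change was 0.48.

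The summed level of 11 granulocyte and monocyte markers came to 2694, 491, 4670, 884 and 587 CPM for NEO1+ libraries 1 to 5. The NEO1- sums were 382, 549, 3141, 1588 and 1070 CPM. The 4 libraries with the highest sums were again NEO1+ libraries 1 and 3 and NEO1- libraries 3 and 4. Single markers did not share 1 pattern. Mpo, the neutrophil peroxidase, had 0 counts in NEO1- libraries 1 and 2 and 1590 CPM in NEO1- library 3. Elane, Prtn3, Ctsg and Ms4a3 were also highest in NEO1- library 3, and the other markers in NEO1+ library 3. Ngp was at 706.4 and 1233 CPM in NEO1+ libraries 1 and 3, but at 4.505 CPM in NEO1- library 3. In NEO1- library 5 Ngp was at 318.1 CPM and Mpo at 0.3308 CPM. All 11 markers were counted in 7 libraries; NEO1+ library 2 and NEO1- libraries 1 and 2, all with 0 counts of Gata1, had 7, 4 and 6 of them. NEO1- library 5, which also had 0 counts of Gata1, had all 11. The part of these markers in the factor values was not tested.

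**Figure D4:**
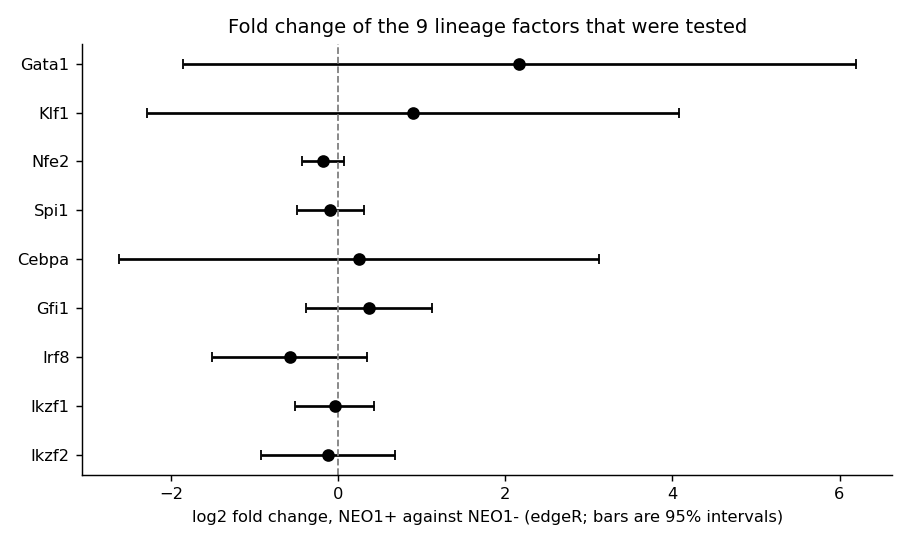
Log2 fold change of NEO1+ against NEO1- libraries (horizontal axis) with its 95% interval for the 9 tested factors (rows). Every interval includes 0; those of Gata1, Klf1 and Cebpa are the widest, and that of Nfe2, from -0.43 to 0.08, is the narrowest.

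Ikzf1 encodes Ikaros, which opens the lymphoid program and is also expressed in stem cells. Its NEO1+ values were 114, 97.2, 106, 80.2 and 68.1 CPM for libraries 1 to 5, and its NEO1- values 58.0, 85.8, 125, 84.8 and 126 CPM. The NEO1- libraries held both the lowest and the highest value. Only 0.0200% of its sum of squares lay between the groups, and the log2 fold change was -0.04 (SE 0.22, edgeR adjusted p 0.998; 95% interval 0.700-fold to 1.35-fold). Ikzf2 encodes Helios, a close relative. Its NEO1+ values were 26.5, 18.7, 22.3, 15.9 and 10.1 CPM for libraries 1 to 5, and its NEO1- values 11.05, 23.7, 12.9, 27.2 and 27.0 CPM. The groups overlapped throughout, and the log2 fold change was -0.12 (SE 0.37, edgeR adjusted p 0.998; 95% interval 0.529-fold to 1.5995-fold). Both genes were lowest in NEO1- library 1 within that group and in NEO1+ library 5 within the other, and their centred profiles differed by 0.43 log2 units.

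Ebf1, which commits cells to the B lineage, was not tested, because its counts did not pass the low-count filter. It had 72 counts (2.19 CPM) in NEO1+ library 4, 1 count in NEO1+ library 1 and 0 counts in the other 8 libraries. Its signal was therefore that of 1 library, which was also the library with Neo1 at the NEO1- level. Of the 7 B cell markers, Igll1 and Pax5 were among those with 0 counts in all libraries, and the summed level in NEO1+ library 4 was 35.6 CPM, within the 26.1 to 60.9 CPM of all libraries, nearly all from Cd79b.

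Among 15 other lymphoid transcription factors 9 were tested, 0 passed by edgeR and 0 had an unadjusted p under 0.05 (median log2 fold change 0.09). Gata3, best known for T cells, had the smallest p, with a mean of 73.0 ± 7.82 CPM over the NEO1+ libraries and 54.5 ± 14.4 CPM over the NEO1- ones (SD, n = 5 per group; log2 fold change 0.42, SE 0.20, edgeR adjusted p 0.756), followed by Ikzf5 (0.59, SE 0.44) and Tcf3 (0.09, SE 0.15). Of 16 lymphoid genes 3 were tested and 0 passed: Flt3 (-1.76, SE 1.23), Vpreb1 (-1.11, SE 1.85) and Cd79b (0.05, SE 0.27), with edgeR adjusted p values of at least 0.898. Rag1, Dntt, Igll1 and Cd3e had 0 counts throughout.

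To compare levels between genes, CPM was divided by the length of the longest coding transcript in kb. The order of the medians over 10 libraries was Nfe2 at 162, Spi1 at 45.9, Ikzf1 at 17.7, Gfi1 at 13.4, Irf8 at 7.34, Klf1 at 5.29, Ikzf2 at 2.21, Cebpa at 1.36, Gata1 at 1.14 and Ebf1 at 0 CPM per kb. Nfe2 (121 to 185) lay above Spi1 (30.7 to 58.8) in all libraries, and Spi1 above Ikzf1 (11.2 to 24.5). From Ikzf1 downward, the ranges of neighbors in this order overlapped.

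In 3 families a relative was far more abundant per length than the factor described here. Gata2 was at 168.5 CPM per kb (median; 144 to 198 in single libraries), where Gata1 ranged from 0 to 11.1. Cebpb stood at 133 CPM per kb (74.6 to 161) above Cebpa, at 0 to 2.83, and Gfi1b, an erythroid and megakaryocyte repressor, at 43.0 (33.4 to 79.1) above Gfi1, at 6.18 to 19.0. The ranges of these pairs did not overlap. Among the Ikaros relatives, Ikzf3 had 0 counts in all libraries, and Ikzf4 and Ikzf5 had medians of 2.55 and 2.77 CPM per kb, close to Ikzf2. Cebpe, a later granulocyte factor, ranged from 0 to 16.5 CPM per kb and was highest in NEO1+ library 3.

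**Figure D5:**
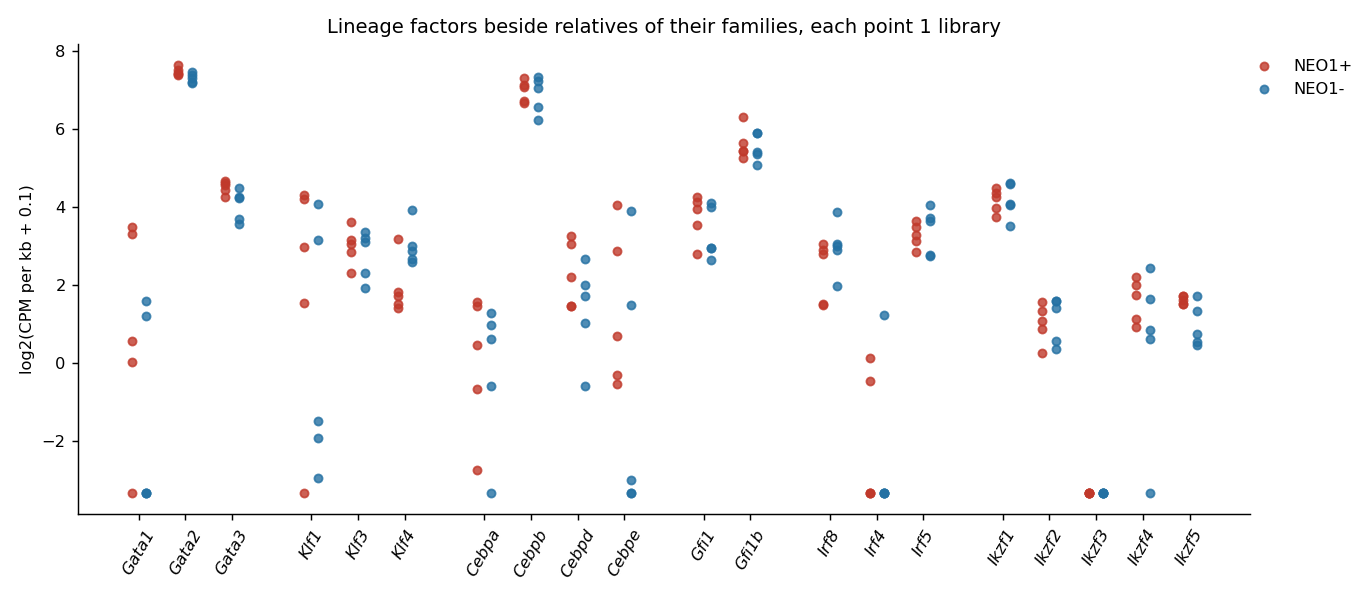
Level per transcript length, log2(CPM per kb + 0.1) on the vertical axis, of the factors and their relatives in 6 families (horizontal axis), with each point 1 library, NEO1+ red and NEO1- blue; points at the bottom are 0 counts. Gata2, Cebpb and Gfi1b lie above Gata1, Cebpa and Gfi1 in every library.

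The genes lie at these positions in GENCODE M21 (GRCm38, the build named mm10 in the submitters' processing notes): Gata1 at chrX:7959260-7978071 on the minus strand, Klf1 at chr8:84901928-84905291 on the plus strand, and Cebpa at chr7:35119293-35121928 on the plus strand, where its 1 exon leaves no intron. Nfe2 is at chr15:103248212-103258403 (minus), Spi1 at chr2:91082390-91115756 (plus), Gfi1 at chr5:107716657-107726036 (minus) and Irf8 at chr8:120736358-120756694 (plus). Ikzf1 is at chr11:11685003-11772926 (plus), Ikzf2 at chr1:69531214-69687245 (minus) and Ebf1 at chr11:44617317-45008091 (plus). Cebpa, Gfi1, Ikzf1, Ikzf2 and Ebf1 each overlap an annotated noncoding gene on the opposite strand, and Irf8 a protein-coding one on its own strand. Ikzf2 also overlaps the intronic genes Gm29112 and Gm28112 on its own strand. No overlapping gene is a row of the count table. Whether counting used strand is not given in the sources used here, so reads of such partners cannot be told from theirs.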

How the data were processed

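For the 10 libraries the authors deposited raw counts, 1 row per symbol, and log2 values. The latter equalled log2(count/constant + 1), with a constant for each library, to within 5.15e-14. Per the labels' protocols, RNA was amplified by Smart-seq2 (oligo-dT priming, 18 cycles of PCR) and tagmented, without molecular identifiers, so intervals and floors cover counting error only. The submitters' processing notes name bcl2fastq 2.18, STAR 2.4, DESeq2 1.22.2 and the mm10 build; the counting tool and the annotation are not given in the sources used here.

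All genes were tested on the counts by edgeR's quasi-likelihood test (edgeR 4.0.16, R 4.3.3; filterByExpr, TMM, robust), with Benjamini-Hochberg adjustment over 12203 genes and a threshold of 0.05. Standard errors were derived from F (the log2 fold change without its sign divided by the root of F), and 95% intervals use the quantile of t at the test's degrees of freedom. CPM uses TMM-scaled sizes; log2 CPM has a prior count of 2. A floor is 3 counts. Alternatives were DESeq2 1.42.0, limma 3.58.1 (voom on counts, trend on deposited log2 values), RLE scaling, no filter, no Rn45s, the replicate number as a block, and each library left out. Pairs of libraries within a group differed by a chi-square per degree of freedom of 86.7 to 116.2 for NEO1+ and 115.4 to 232.3 for NEO1-.

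Nothing states that same-numbered libraries came from the same mice, and where separate libraries of a group shared animals is not stated, so p-values measure the spread between these libraries. The factors and gene lists were chosen with earlier results of these data known. By rule, all 10 factors were named, up to 3 genes of smallest p per list, the 5 closest profiles for each tested factor with a spread above 1, and Neo1 and Hoxb5; further names were chosen after their values were seen, and a few listed genes are not reported here. Sequences are from RefSeq (GRCm38.p6), which held promoters for 7 of the 10 factors. Transcript lengths are from GENCODE M21, which may differ from the authors' annotation.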

Additional observations from a re-analysis of the deposited data

Results flagged for a closer look

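Among 39 sets of 5 values (the factors, Neo1, Hoxb5 and the summed marker levels, each within a group), 2 held a library far from the others of its group, where 1.95 are expected by chance. Both were NEO1+ library 4. Ebf1 was at 1.17 log2 CPM there and at -3.17 or less in the other NEO1+ libraries, the difference between 72 counts and at most 1. Neo1 was at 3.65 log2 CPM there and at 5.61 or more in the others. The cause of either was not tested.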

How the results depend on the processing

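None of the 9 tested factors passed under any of the 18 alternatives, and Gata1, Klf1, Nfe2, Gfi1 and Irf8 kept their sign in all of them. The signs of the other 4 turned when 1 library was left out, with log2 fold changes over those fits from -0.24 to 0.0051 for Spi1, -0.13 to 0.61 for Cebpa, -0.18 to 0.077 for Ikzf1 and -0.28 to 0.036 for Ikzf2. The count of all genes called moved from 0 to 147 with DESeq2, 2 with limma-voom, 1 with limma-trend on the deposited values, 2 without the filter, 704 with DESeq2 and the replicate block, and 0 to 1 with a library left out (1 without NEO1- library 1). Among 101 other lineage genes that entered DESeq2, it called 2 (Cybb and Vwf, both higher in NEO1+), where it called 147 of 15684 genes. With the block it called 9 of the 101, where it called 704 of 15684 genes. Higher in NEO1+ were Gp1bb, Cebpe, Slc4a1, Blnk, Tubb1, Cybb and Vwf, and lower were Klf4 and Jun. The number of factors with a spread above 1, Ebf1 included, was 4, and 3 to 4 with a library left out (3 without NEO1+ library 4, through Ebf1); the cause of the other changes was not tested. Deviations of same-numbered libraries from their group means correlated by 0.00403 to 0.0359 over all genes tested, against a mean of -0.0042 for different numbers. Of 10 libraries, 4 correlated best with their own number. These values do not settle whether the numbers pair libraries. With the replicate block edgeR called 0 genes, and the log2 fold change of Gata1 was 4.04 and of Klf1 1.64. Ebf1 entered 3 alternative fits: without the filter edgeR gave an unadjusted p of 0.035 (adjusted p 0.425), DESeq2 gave no p, and DESeq2 with the block gave an adjusted p of 0.923. For Ebf1, and in the libraries without Gata1, levels under the floors cannot be seen. Those without Gata1 had 38.3 M (NEO1+ library 2), 35.3, 24.5 and 30.3 M counts (NEO1- libraries 1, 2 and 5). NEO1+ library 1, with the most Gata1, had 21.2 M. The cause of the 0 counts was not tested.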

Other observations

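Several markers of other cell kinds varied among libraries. A spread above 1 was found for 3 of 3 T and NK cell, 2 of 3 endothelial or stromal and 1 of 1 mast cell markers tested. Nkg7, of cytotoxic lymphocytes, ranged from 3.44 to 49.7 CPM and was highest in NEO1- library 3. Klrb1c, which encodes NK1.1, ranged from 0.813 to 32.2 CPM and was lowest in that library. Cxcl12, a stromal chemokine, ranged from 0 to 29.3 CPM. Of 5 mast cell and basophil markers, Ms4a2, Prss34 and Gzmb had 0 counts in all libraries, and the sum of all 5 reached at most 4.03 CPM, in NEO1+ library 3. The 6 T and NK cell markers summed to 22.3 to 52.7 CPM with Cd3e at 0 throughout, and the 6 endothelial and stromal markers to 28.4 to 70.8 CPM with Cdh5 and Lepr at 0 throughout.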
